A study of Mus musculus with 9 samples.

Results

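The genes described here encode the constitutive proteasome. They are the protein-coding mouse genes named Psma, Psmb, Psmc, Psmd, Psme, Psmf or Psmg with a number, without the interferon-inducible subunits Psmb8, Psmb9 and Psmb10, whose mean level over 9 kidney libraries was at least 0.5 FPKM (a fragment count per transcript length and library size). The rule used names and mean levels and no difference between groups. It took 43 of the 34310 genes in the table, and 15015 genes in all reached 0.5 FPKM. Of 45 candidates, Psma8, the alpha subunit of the testis proteasome, and Psmb11, the beta subunit of the thymus proteasome, stayed under the minimum with means of 0.0835 and 0.00244 FPKM. The lowest member was Psmg3 with 2.82 FPKM. By role, 7 members form the alpha ring and 7 the beta ring of the 20S core, 6 are the ATPases of the 19S cap and 11 its other subunits, 3 are 11S activators (Psme1 to Psme3), 2 are another activator and an inhibitor (Psme4 and Psmf1), and 7 are assembly chaperones (Psmg1 to Psmg4, Psmd5, Psmd9 and Psmd10).

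Poly(A) RNA of fresh kidney was sequenced from 9 mice, 3 in each group, 1 library per mouse. Mice of the LPS+Tβ4 group were given lipopolysaccharide, the endotoxin of Gram-negative bacteria, and thymosin β4, a small peptide that binds monomeric actin. Mice of the LPS group were given lipopolysaccharide, and mice of the saline group were the controls. Dose, time, route, strain, sex and age are not given in the labels used here, and the series title places the work in sepsis-associated acute kidney injury.

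The proteasome is the protease that degrades proteins tagged with ubiquitin. Its core is a barrel of alpha and beta rings with the active sites inside, and the 19S cap binds, unfolds and feeds ubiquitinated proteins into it. The 11S activators and PA200 (Psme4) open the core without ATP or ubiquitin, PI31 (Psmf1) was first described as an inhibitor of the core, and dedicated chaperones put the rings together. Interferons replace the active subunits of the beta ring by inducible ones to form the immunoproteasome, and a shortage of proteasome activity leads the transcription factor NRF1 (Nfe2l1) to raise the subunit genes together in mammalian cells.

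Library totals lay between 52953654 and 62019631 counts, and in each library at least 189 counts fell on every member. Members took 0.498% to 0.531% of the counts in LPS+Tβ4 libraries, 0.496% to 0.525% in LPS libraries and 0.287% to 0.319% in saline libraries. All 9 proximal tubule and 9 other nephron markers were above 1 CPM (counts relative to the TMM-scaled library size) in every group mean. The summed level of 9 proximal tubule markers was 1151 to 1774 CPM in LPS+Tβ4 libraries, 614 to 2589 CPM in LPS libraries and 8484 to 11127 CPM in saline libraries. That of the 6 of 9 leukocyte markers that were tested was 78.6 to 163, 70.7 to 88.8 and 21.3 to 32.3 CPM in the same order, with Cd3e and Cd79a below 1 CPM in every group mean. Of these 6, 4 were higher and 1 was lower in LPS than in saline (edgeR). Ptprc, the remaining untested marker, had means of 9.40 CPM in LPS+Tβ4, 5.47 CPM in LPS and 11.8 CPM in saline libraries. The 9 other nephron markers summed to 1642 to 3886 CPM in LPS+Tβ4, 812 to 3153 CPM in LPS and 4312 to 5400.3 CPM in saline libraries, and 7 of the 9 were lower in LPS than in saline (edgeR). The 5 erythroid markers summed to 181 to 261 CPM in LPS+Tβ4, 533 to 703 CPM in LPS and 544 to 689 CPM in saline libraries, and all 5 were lower in LPS+Tβ4 than in LPS (edgeR). The 9 neural markers summed to 516 to 622 CPM in LPS+Tβ4, 31.3 to 184 CPM in LPS and 62.3 to 69.6 CPM in saline libraries. The 5 uroplakins of the urothelium split the libraries across the groups. They summed to 1.03, 0.754 and 65.5 CPM in LPS+Tβ4 libraries 1 to 3, to 54.8, 45.9 and 0.924 CPM in LPS libraries 1 to 3 and to 2.12, 86.5 and 74.1 CPM in saline libraries 1 to 3. The part of these other tissues in the results below was not tested, apart from the values within urothelium-poor and urothelium-rich libraries. In bulk tissue, fewer cells of a type and less RNA per cell cannot be told apart.

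Transcripts of most core and cap subunits were modestly higher in LPS than in saline kidneys. With LPS, 23 of 43 members rose and 3 fell in edgeR's quasi-likelihood test (adjusted p under 0.05 over all 15015 genes), where 20.9% of all tested genes rose and 22.2% fell. The ranges of the 3 LPS and 3 saline libraries were apart for 31 members above saline and 3 below it, against 25.8% and 28.5% of all tested genes. At an unadjusted p under 0.05, 29 members were higher and 3 lower, against 25.4% and 26% of all tested genes. The median log2 change was 0.50 over the members and 0.02 over all tested genes, so the members' median was a rise of less than 1.5-fold. The 3 members that fell were Psme4, Psmg1 and Psmd5, of which none is a subunit of the core or the cap. Of the 31 core and cap genes, 19 rose and none fell. A ± after a log2 change below gives its SE from edgeR. Log2 ratios of sums with copies, and those within urothelium-poor or urothelium-rich libraries, are ratios of mean CPM.

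**Figure D1:**
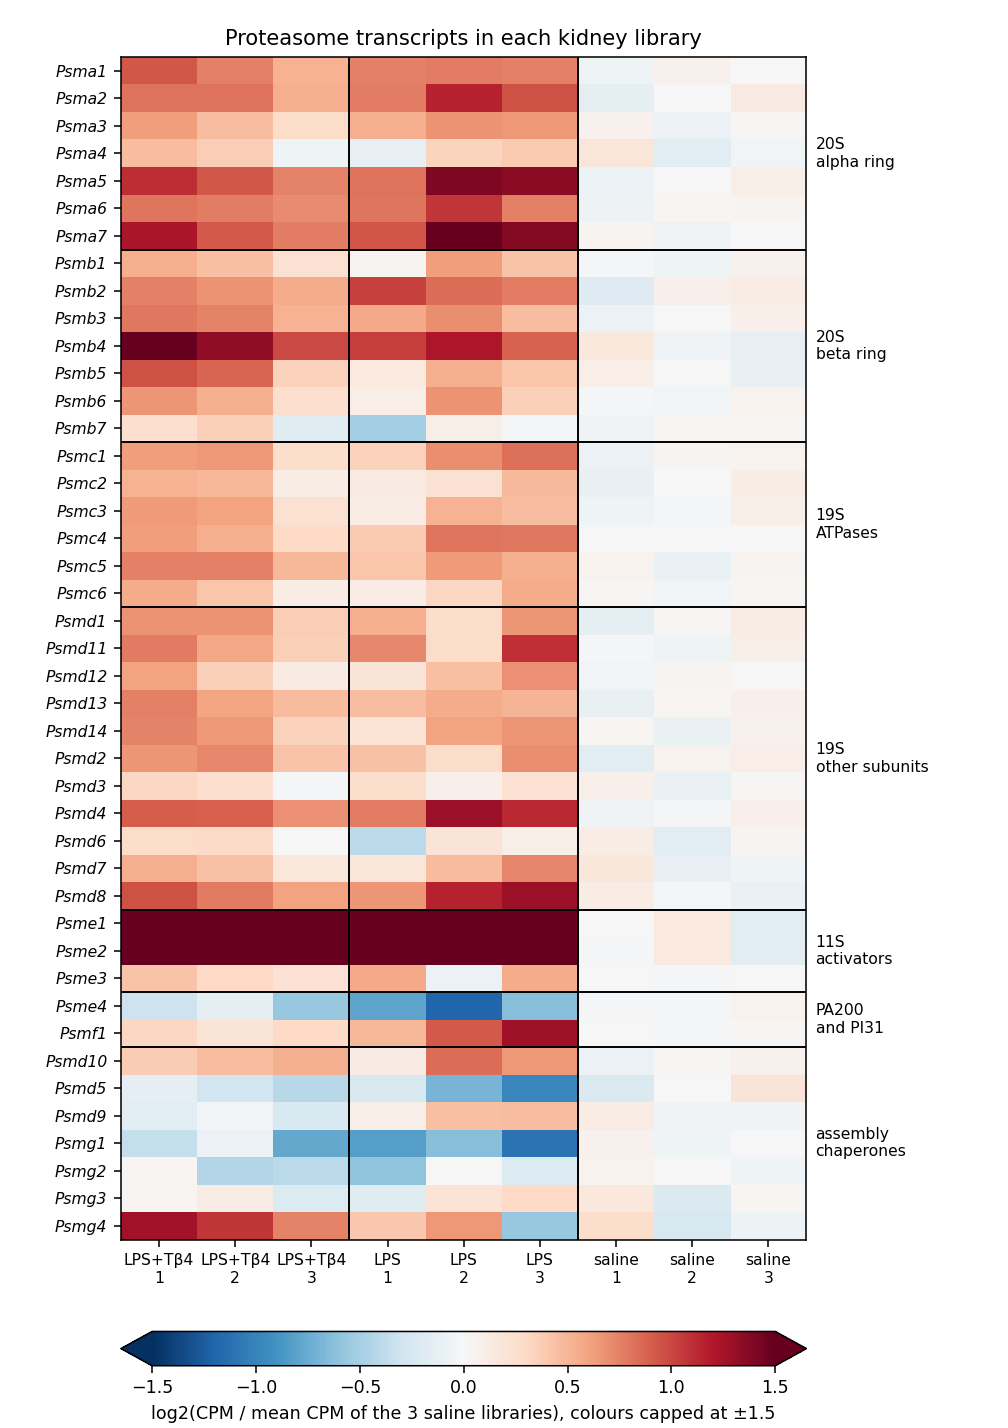
Heat map of the 43 proteasome transcripts (rows, by role) in the LPS+Tβ4, LPS and saline libraries (columns). Colour gives the log2 ratio of a library's CPM to the mean of the 3 saline libraries, capped at ±1.5: most core and cap rows are red in the 6 endotoxin libraries, Psme1 and Psme2 pass the cap, and Psme4, Psmg1 and Psmd5 are blue.

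The alpha ring, which gates the entry to the core, had the highest share of rising genes in the core and cap: 6 of its 7 genes rose with LPS, and the median log2 change was 0.88. Psma6 had 135, 131 and 126 CPM in the LPS+Tβ4 libraries, 134, 161 and 130.4 in the LPS libraries and 73.2, 78.6 and 79.0 in the saline libraries. All 3 LPS libraries stood above all 3 saline libraries (log2 change 0.88 ± 0.12, edgeR adjusted p = 0.000711). Psma7 had 193, 156 and 141 CPM in the LPS+Tβ4 libraries, 159, 256 and 214 in the LPS libraries and 85.0, 79.6 and 82.5 in the saline libraries, and its change was the largest of the core (log2 change 1.35 ± 0.19, edgeR adjusted p = 0.000981). Again the LPS and saline ranges were apart, with the first LPS library the lowest of its group. Psma5 had 94.5, 84.2 and 73.8 CPM in the LPS+Tβ4 libraries, 77.6, 116 and 112 in the LPS libraries and 41.2, 44.1 and 46.6 in the saline libraries (log2 change 1.21 ± 0.17, edgeR adjusted p = 0.00098). It showed the same order of libraries, with LPS library 1 the lowest of the LPS group. Psma2, Psma1 and Psma3 rose by 0.97, 0.76 and 0.62 on the log2 scale. Psma4 was the exception. It had 194, 182 and 135 CPM in the LPS+Tβ4 libraries, 130.0, 178 and 185 in the LPS libraries and 160.2, 126 and 137 in the saline libraries, so the groups overlapped (log2 change 0.22 ± 0.19, edgeR adjusted p = 0.387).

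Psma3 is measured with a caveat: the pseudogene Gm13835 is identical to it over 665 bases, so reads can be split between them. Per length the pseudogene had the higher mean level (52.9 against 19.8 FPKM). In CPM it had the lower one, with 44.1 against 90.2 in LPS+Tβ4, 46.0 against 101 in LPS and 31.2 against 65.6 in saline libraries. Psma3 and Gm13835 summed to 152, 135 and 116 CPM in LPS+Tβ4 libraries, to 129, 159 and 153 CPM in LPS libraries and to 102, 91.4 and 97.3 CPM in saline libraries, a log2 ratio of 0.60 for LPS over saline. The sum gave the same direction as Psma3 alone, and the LPS and saline ranges stayed apart.

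Since 6 of the 7 alpha genes rose, the 250 bases before the starts of the alpha genes are described. RefSeq promoters (GRCm38.p6) were given for 36 of the 43 members and all 7 alpha genes. The letters CCAAT, searched on both strands, occurred in 5 of the 7 alpha ring promoters (71.4%), in 12 of 36 members' promoters (33.3%) and in 37.5% of 27025 promoters. A match is a description of letters and not a bound site. The 5 stretches of 60 bases are those of the alpha genes that held these letters. Any link between the letters and the changes was not tested. They are written 5′ to 3′ on the gene's strand, with CCAAT, or its reverse complement ATTGG, in capitals. They lie at chr7:114276183-114276242 (minus strand), chr13:14613160-14613219 (plus), chr12:70974456-70974515 (plus), chr12:55384162-55384221 (plus) and chr2:180042629-180042688 (minus).
Psma1: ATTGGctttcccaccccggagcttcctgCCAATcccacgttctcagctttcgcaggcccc
Psma2: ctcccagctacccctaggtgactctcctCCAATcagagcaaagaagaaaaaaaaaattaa
Psma3: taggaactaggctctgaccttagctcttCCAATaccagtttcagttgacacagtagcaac
Psma6: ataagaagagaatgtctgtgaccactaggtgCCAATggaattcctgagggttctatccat
Psma7: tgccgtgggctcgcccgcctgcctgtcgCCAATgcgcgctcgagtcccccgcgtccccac
The CCAAT at the middle of each stretch began 98, 54, 139, 29 and 196 bases before the RefSeq gene start in that order, so the matches shared no position. Psma1 and Psma6 held 2 matches each in the 250 bases. The promoters of Psma5, which rose, and Psma4, which did not pass, held no such letters in this window.

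In the beta ring, 3 of 7 genes passed. Its structural members Psmb2, Psmb3 and Psmb4 rose with LPS, while the active subunits Psmb5, Psmb6 and Psmb7 and the structural Psmb1 did not pass, and the median log2 change of the 7 was 0.39. Psmb1, Psmb5 and Psmb6 differed in the same direction (log2 changes 0.39, 0.38 and 0.39) and Psmb7 by -0.13. The difference between genes that passed and those that did not was not tested. Psmb4 had 236, 210.2 and 167 CPM in the LPS+Tβ4 libraries, 171, 195 and 154 in the LPS libraries and 93.1, 80.9 and 77.1 in the saline libraries (log2 change 1.05 ± 0.16, edgeR adjusted p = 0.00144). No LPS library was as low as any saline library. Psmb2 had 66.5, 63.1 and 58.2 CPM in the LPS+Tβ4 libraries, 80.1, 70.5 and 67.4 in the LPS libraries and 34.5, 41.5 and 42.5 in the saline libraries (log2 change 0.88 ± 0.13, edgeR adjusted p = 0.00105). Psmb3 had 109, 106 and 90.3 CPM in the LPS+Tβ4 libraries, 93.6, 102 and 87.1 in the LPS libraries and 59.2, 63.2 and 66.5 in the saline libraries (log2 change 0.58 ± 0.12, edgeR adjusted p = 0.00525). Both showed LPS and saline ranges apart.

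Psmb5, which carries the chymotrypsin-like site, had 163, 154 and 107 CPM in the LPS+Tβ4 libraries, 92.8, 123 and 112 in the LPS libraries and 89.9, 84.4 and 78.0 in the saline libraries. LPS library 1 stood just above the saline libraries (log2 change 0.38 ± 0.18, edgeR adjusted p = 0.123). Psmb6, with the caspase-like site, had 134, 122 and 101 CPM in the LPS+Tβ4 libraries, 90.5, 134 and 108 in the LPS libraries and 83.4, 82.0 and 88.0 in the saline libraries (log2 change 0.39 ± 0.17, edgeR adjusted p = 0.0885). Both passed when LPS library 1 was left out (log2 change 0.53, edgeR adjusted p = 0.0397 for Psmb5 and 0.57, edgeR adjusted p = 0.0143 for Psmb6). Psmb7, with the trypsin-like site, had 134, 144 and 99.4 CPM in the LPS+Tβ4 libraries, 78.8, 119.9 and 112 in the LPS libraries and 109, 115 and 115 in the saline libraries, and its groups overlapped (log2 change -0.13 ± 0.19, edgeR adjusted p = 0.624). LPS library 1 was the lowest of all 9 for Psmb7.

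The alpha and beta genes stood in another proportion in LPS kidneys. The summed CPM of the 7 alpha genes over that of the 7 beta genes was 1.02, 0.983 and 1.06 in LPS+Tβ4 libraries, 1.22, 1.26 and 1.34 in LPS libraries and 1.02, 0.986 and 1.01 in saline libraries. All 3 LPS libraries were above the other 6. In FPKM, which is per length, the ratio was 0.808, 0.787 and 0.879 in LPS+Tβ4, 0.976, 1.04 and 1.09 in LPS and 0.832, 0.822 and 0.860 in saline libraries, with the LPS libraries again the highest. This ratio was chosen after its values were seen and has no test.

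Antioxidant response element letters, TGACNNNGC on both strands, are the core of the site that NRF1 and NRF2 bind. They occurred in 5 of 36 members' promoters (13.9%) and in 11.5% of 27025 promoters. Of the 4 beta ring genes with a RefSeq promoter, Psmb5 and Psmb6 held them, and both stretches are shown because these genes carry active sites and did not pass with LPS. The matches are in capitals, at chr14:54618009-54618068 (minus strand) and chr11:70525297-70525356 (plus strand).
Psmb5: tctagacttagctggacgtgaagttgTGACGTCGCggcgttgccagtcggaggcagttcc
Psmb6: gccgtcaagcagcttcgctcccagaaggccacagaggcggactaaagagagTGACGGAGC
The other 3 members with these letters were Psmc6, Psmd12 and Psmd9. None of the 5 passed in LPS against saline, where 17 of all 43 members did not pass. Psmd12 (edgeR adjusted p = 0.0504) and Psmd9 (edgeR adjusted p = 0.0763) were near the threshold. Any link between the letters and the changes was not tested.

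Of the 6 ATPases, the motor of the cap, 3 rose with LPS and the median log2 change was 0.46. Psmc4 had 126, 119 and 100.4 CPM in the LPS+Tβ4 libraries, 107, 142 and 141 in the LPS libraries and 81.8, 81.5 and 81.2 in the saline libraries (log2 change 0.68 ± 0.15, edgeR adjusted p = 0.0063). Psmc5 had 135, 135 and 112 CPM in the LPS+Tβ4 libraries, 106, 125 and 116 in the LPS libraries and 82.9, 74.5 and 81.7 in the saline libraries (log2 change 0.54 ± 0.12, edgeR adjusted p = 0.00816). Psmc1, whose yeast counterpart helps to open the alpha gate, had 165, 168 and 128 CPM in the LPS+Tβ4 libraries, 136, 173 and 189 in the LPS libraries and 100.1, 109.8 and 111 in the saline libraries (log2 change 0.63 ± 0.16, edgeR adjusted p = 0.0133). The LPS and saline ranges were apart for these genes and for the other 3 ATPases too. Psmc2 had 122, 119.9 and 91.4 CPM in the LPS+Tβ4 libraries, 92.9, 99.7 and 119 in the LPS libraries and 78.5, 84.6 and 91.6 in the saline libraries, a smaller difference that did not pass (log2 change 0.29 ± 0.15, edgeR adjusted p = 0.159). Psmc3 and Psmc6 differed by 0.38 and 0.34 on the log2 scale and did not pass.

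Of the 11 other cap subunits, 7 rose with LPS (median log2 change 0.50). Psmd4, a ubiquitin receptor of the cap, had 157, 156 and 135 CPM in the LPS+Tβ4 libraries, 142, 204 and 184 in the LPS libraries and 81.0, 82.3 and 88.3 in the saline libraries (log2 change 1.08 ± 0.15, edgeR adjusted p = 0.000918). Psmd8, a lid subunit, had 196, 174 and 155 CPM in the LPS+Tβ4 libraries, 161, 226 and 250.3 in the LPS libraries and 110.1, 100.1 and 94.7 in the saline libraries (log2 change 1.06 ± 0.18, edgeR adjusted p = 0.0022). For both genes every LPS library was above every saline library. Psmd13 had 123, 109 and 100.4 CPM in the LPS+Tβ4 libraries, 100.1, 106 and 103 in the LPS libraries and 67.3, 73.8 and 76.3 in the saline libraries (log2 change 0.51 ± 0.11, edgeR adjusted p = 0.00759). Psmd11, Psmd14, the deubiquitinase of the cap, Psmd1 and Psmd2, its scaffold, rose by 0.74, 0.51, 0.50 and 0.48. Psmd6, a lid subunit, had 84.8, 85.2 and 69.5 CPM in the LPS+Tβ4 libraries, 52.6, 79.9 and 74.3 in the LPS libraries and 75.5, 62.3 and 71.6 in the saline libraries, with overlapping groups (log2 change -0.02 ± 0.18, edgeR adjusted p = 0.945). Psmd3, Psmd7 and Psmd12 differed by 0.19, 0.48 and 0.46 and did not pass. The calls of Psmd11, Psmd14, Psmd1 and Psmd2 did not hold without some single libraries. Without saline library 2 the adjusted p was 0.0625 for Psmd11, 0.0992 for Psmd14 and 0.0647 for Psmd1, and without LPS library 3 it was 0.0901 for Psmd2 (edgeR).

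Over the whole core, 9 of 14 genes rose, with a median log2 change of 0.69, and over the cap 10 of 17 rose, with a median of 0.50. The difference between core and cap was not tested. The core's summed FPKM over the cap's was 1.19, 1.15 and 1.14 in LPS+Tβ4 libraries, 1.16, 1.23 and 1.02 in LPS libraries and 1.05, 1.04 and 1.01 in saline libraries. LPS library 3 lay within the saline range, LPS library 1 within the LPS+Tβ4 range and LPS library 2 above both. Within a class, levels per length differed by several fold in every group. In the core, Psmb5 was the highest gene in each group mean, with 148 ± 21.1 FPKM in LPS+Tβ4, 111 ± 7.81 FPKM in LPS and 76.8 ± 6.23 FPKM in saline libraries (SD, n = 3 each). Psma3, the lowest, had 21.9 ± 1.14, 23.7 ± 1.62 and 13.8 ± 0.221 FPKM in the same order, with the caveat given for its pseudogene. In the cap, Psmd11 was the lowest gene in each group.

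**Figure D2:**
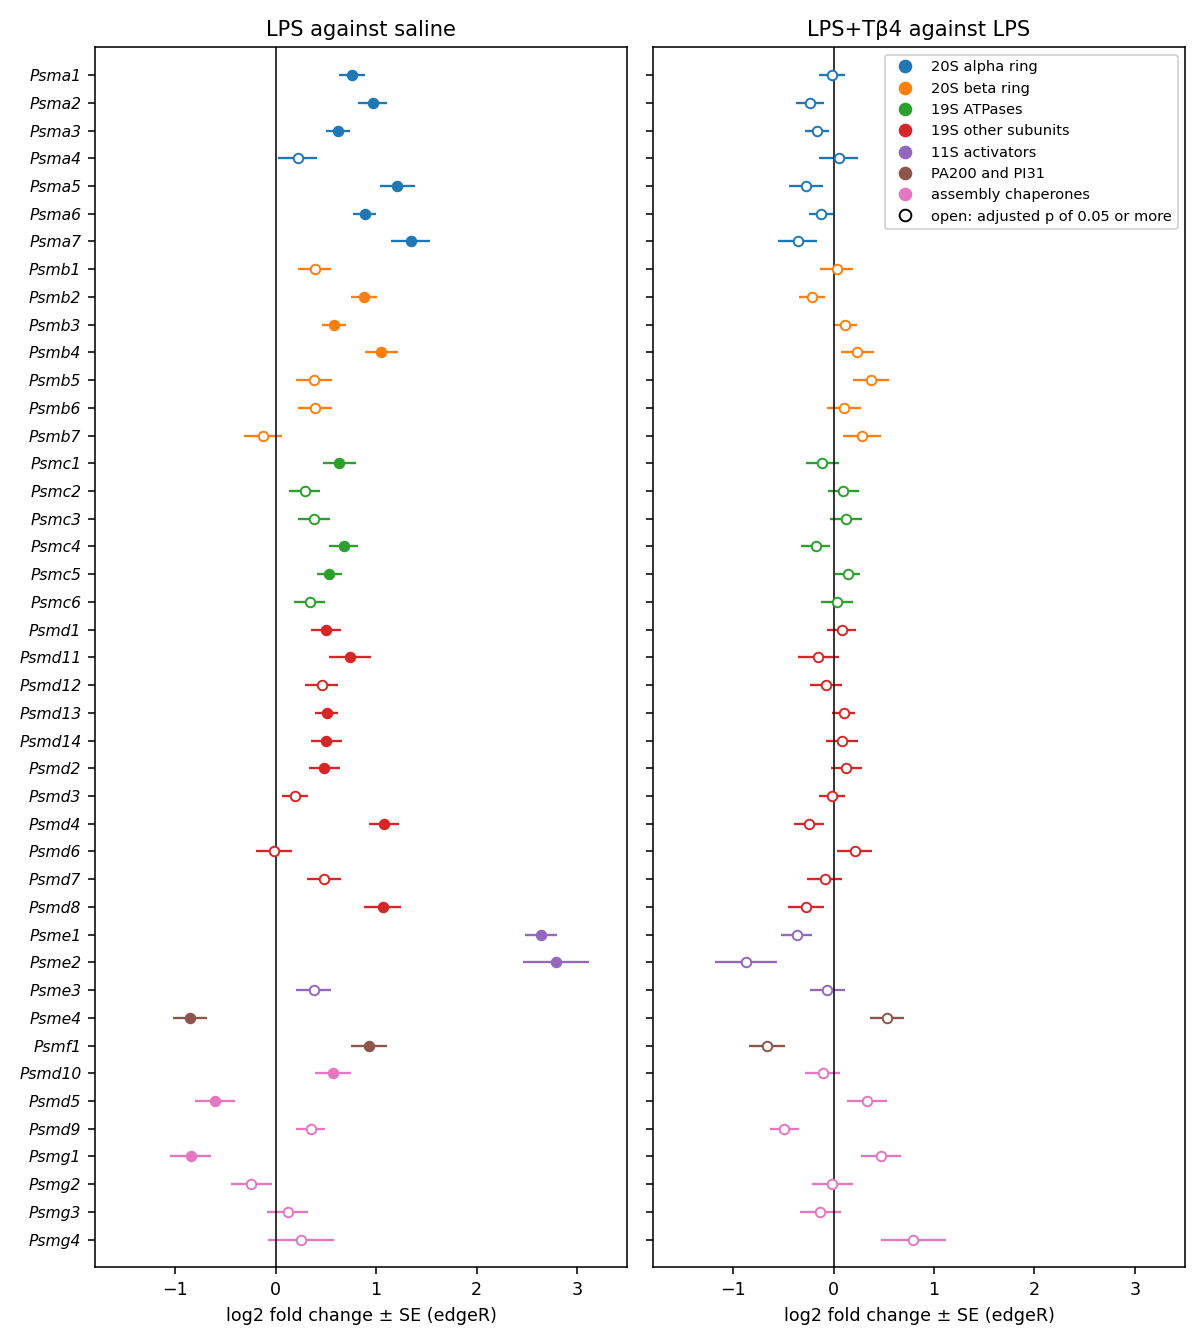
Log2 fold changes ± SE (edgeR, horizontal axis) of the 43 members, by role, for LPS against saline (left) and LPS+Tβ4 against LPS (right). Filled points passed an adjusted p of 0.05, as 26 members did on the left, with Psme1 and Psme2 the farthest from 0, and none did on the right.

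The 11S activators went furthest. Psme1 and Psme2 encode PA28α and PA28β, which form the interferon-inducible cap of the immunoproteasome, and they are neighbours on chromosome 14 (chr14:55578123-55581528 and chr14:55587441-55591113, GRCm38). Psme1 had 201, 182 and 204 CPM in the LPS+Tβ4 libraries, 275, 278 and 205 in the LPS libraries and 40.6, 44.7 and 36.1 in the saline libraries, a 6.24-fold rise with LPS (log2 change 2.64 ± 0.16, edgeR adjusted p = 4.31e-05). Psme2 had 108, 108 and 158 CPM in the LPS+Tβ4 libraries, 281, 279 and 124 in the LPS libraries and 32.7, 36.6 and 29.6 in the saline libraries, a 6.92-fold rise (log2 change 2.79 ± 0.33, edgeR adjusted p = 0.000397). Every LPS library was above every saline library by more than 3-fold for both genes. Psme3, which encodes the nuclear activator PA28γ, had 117, 107 and 101 CPM in the LPS+Tβ4 libraries, 129, 81.7 and 128 in the LPS libraries and 87.6, 85.8 and 87.4 in the saline libraries, and its groups overlapped through LPS library 2 (log2 change 0.38 ± 0.18, edgeR adjusted p = 0.116). Without LPS library 2 it passed (log2 change 0.62, edgeR adjusted p = 0.00525).

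LPS library 3, the urothelium-poor one of its group, was the lowest LPS library for Psme1 and Psme2. Set beside the urothelium-poor saline library, it was higher by 2.33 for Psme1 and 1.92 for Psme2 on the log2 scale, and the 2 urothelium-rich LPS libraries were higher than the 2 urothelium-rich saline libraries by 2.78 and 3.08. As every LPS library was above every saline library for both genes, any split had to show a rise, so this split adds no support. Over all 43 members, 37 were higher with LPS in the urothelium-poor libraries (1 LPS and 1 saline) and 37 in the urothelium-rich ones (2 of each). The shares of all tested genes were 46.9% and 51.3%, and members are not replicates of these libraries. The LPS and saline ranges were apart for 31 members above saline and 3 below it. Their direction in any split was fixed in advance, so the counts of 37 add little. Psme2b, a gene 99.4% identical to Psme2 over 794 bases, may share reads with it. It rose too (log2 change 2.35 ± 0.34, edgeR adjusted p = 0.00103), and the sum of both genes was higher in LPS by 2.68 on the log2 scale. A match to the core letters of the interferon-stimulated response element, on either strand, occurred in 3 of 36 members' promoters (8.33%, Psmb3, Psmd4 and Psmd9) and in 3.46% of 27025 promoters, and none of the 3 activators held one in the 250 bases.

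The 2 remaining regulators moved apart. Psme4, which encodes PA200, an activator found mainly in the nucleus, had 178, 201 and 148 CPM in the LPS+Tβ4 libraries, 127, 96.8 and 141 in the LPS libraries and 215, 218 and 228 in the saline libraries. It fell with LPS (log2 change -0.86 ± 0.17, edgeR adjusted p = 0.00464), and no LPS library reached the lowest saline library. Relative to the cap, the other partner of the core, its CPM over the cap's summed CPM was 0.0716, 0.0843 and 0.0752 in LPS+Tβ4 libraries, 0.0624, 0.0419 and 0.0549 in LPS libraries and 0.137, 0.140 and 0.139 in saline libraries. All 6 endotoxin libraries lay well below the saline libraries. Psmf1, which encodes PI31, had 35.9, 33.0 and 35.4 CPM in the LPS+Tβ4 libraries, 40.8, 54.7 and 69.5 in the LPS libraries and 28.8, 28.6 and 29.3 in the saline libraries and rose with LPS (log2 change 0.93 ± 0.18, edgeR adjusted p = 0.00399). Its saline libraries were close together, and its LPS libraries were widely spread.

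Among the 7 assembly chaperones, 1 rose and 2 fell, and the median log2 change was 0.12. Psmg1, which with Psmg2 starts the alpha ring, had 16.1, 19.4 and 12.1 CPM in the LPS+Tβ4 libraries, 11.6, 13.2 and 9.53 in the LPS libraries and 21.5, 19.7 and 20.6 in the saline libraries and fell with LPS (log2 change -0.85 ± 0.20, edgeR adjusted p = 0.0106), with all LPS libraries below all saline libraries. Its partner Psmg2 had 16.5, 11.9 and 12.2 CPM in the LPS+Tβ4 libraries, 10.7, 16.3 and 14.0 in the LPS libraries and 16.8, 16.2 and 15.5 in the saline libraries, with overlapping groups (log2 change -0.24 ± 0.20, edgeR adjusted p = 0.366). Psmg3, which helps to build the alpha ring, had 9.16, 9.70 and 7.76 CPM in the LPS+Tβ4 libraries, 7.90, 10.3 and 11.04 in the LPS libraries and 10.003, 7.70 and 9.17 in the saline libraries, again with overlapping groups (log2 change 0.12 ± 0.20, edgeR adjusted p = 0.659). Psmg4, which pairs with Psmg3, had 12.2, 10.7 and 8.55 CPM in the LPS+Tβ4 libraries, 6.71, 8.01 and 3.43 in the LPS libraries and 6.13, 4.32 and 4.82 in the saline libraries, with LPS libraries on both sides of the saline ones (log2 change 0.25 ± 0.33, edgeR adjusted p = 0.566).

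The 19S cap has chaperones of its own. Psmd10, or gankyrin, had 35.4, 37.3 and 39.3 CPM in the LPS+Tβ4 libraries, 29.6, 48.7 and 42.8 in the LPS libraries and 25.6, 27.4 and 28.4 in the saline libraries and rose (log2 change 0.57 ± 0.18, edgeR adjusted p = 0.0302). Psmd5 had 52.97, 47.4 and 43.5 CPM in the LPS+Tβ4 libraries, 48.9, 35.7 and 29.5 in the LPS libraries and 49.8, 57.8 and 66.2 in the saline libraries and fell (log2 change -0.61 ± 0.20, edgeR adjusted p = 0.0363). Both calls were lost when single libraries were left out: the adjusted p was 0.0746 for Psmd10 without saline library 2 and 0.147 for Psmd5 without saline library 3 (edgeR). Psmd9 had 22.6, 24.9 and 21.9 CPM in the LPS+Tβ4 libraries, 27.2, 34.9 and 35.3 in the LPS libraries and 27.5, 24.6 and 24.6 in the saline libraries, and LPS library 1 lay within the saline range (log2 change 0.35 ± 0.14, edgeR adjusted p = 0.0763). Psmd5 and Psmd9 overlap genes on the opposite strand that had higher levels, Cutal (14.0 against 5.93 FPKM) and Hpd (7.61 against 3.32 FPKM). The libraries are strand-specific, but whether the counting used the strand is not given in the sources used here, so reads may be shared.

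**Figure D3:**
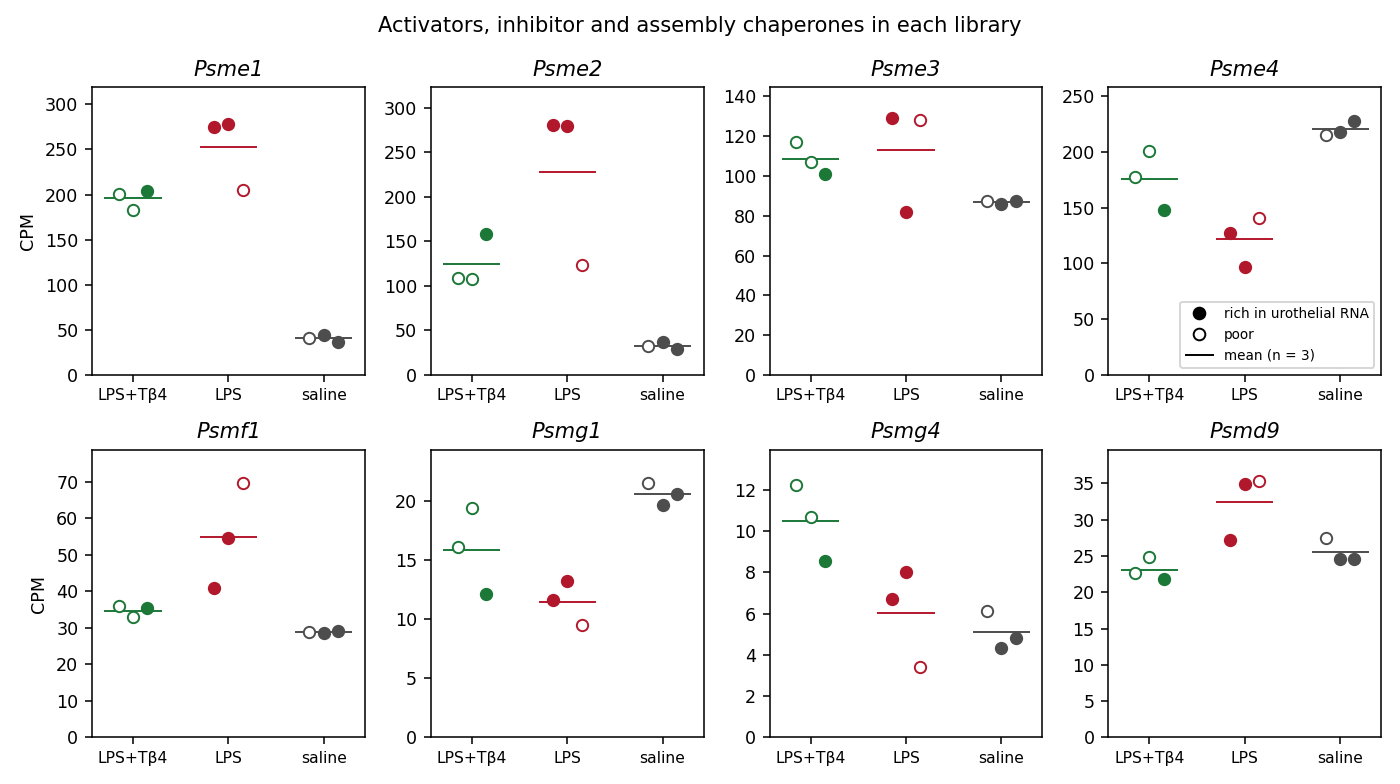
CPM of the 11S activators, Psme4, Psmf1 and 3 assembly chaperones in each LPS+Tβ4, LPS and saline library; filled points are urothelium-rich libraries, open points urothelium-poor ones, lines means (n = 3). Psme1 and Psme2 are higher in all endotoxin libraries than in saline, Psme4 and Psmg1 have their lowest means in LPS, and all LPS libraries lie above all LPS+Tβ4 libraries for Psmf1 and Psmd9.

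Between LPS+Tβ4 and LPS kidneys, which differ in thymosin β4, no member passed in edgeR in either direction, where 4.5% of all tested genes were higher and 2.33% lower. At an unadjusted p under 0.05, 3 members were higher (Psme4, Psmg1 and Psmg4) and 4 lower (Psme1, Psme2, Psmf1 and Psmd9), against 13.5% and 11.5% of all tested genes. DESeq2 called 3 members lower (Psmd9, Psmf1 and Psme2), where it called 2442 of the 15015 tested genes in either direction. The median log2 change was -0.01 over the members and -0.01 over all tested genes. For the 31 core and cap genes, changes lay between -0.36 (Psma7) and 0.37 (Psmb5), each with an SE between 0.11 and 0.20, so a difference of this size is not resolved gene by gene.

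The largest differences were among the regulators and chaperones described above, and none passed. Psmf1 had a log2 change of -0.66 ± 0.18, edgeR adjusted p = 0.0635, and the LPS+Tβ4 libraries all lay below the LPS libraries. Psmd9 showed the same separation (log2 change -0.49 ± 0.14, edgeR adjusted p = 0.0734). Psme1 did too, with its highest LPS+Tβ4 and lowest LPS library nearly equal (log2 change -0.37 ± 0.15, edgeR adjusted p = 0.177). Psme2 differed most, with log2 change -0.87 ± 0.31, edgeR adjusted p = 0.121, but its ranges overlapped. Psme4 and Psmg4 had every LPS+Tβ4 library above every LPS library (log2 changes 0.53 ± 0.17, edgeR adjusted p = 0.0992 and 0.79 ± 0.33, edgeR adjusted p = 0.174). Ranges were apart for 2 members above and 4 below, against 14.4% and 11.9% of all tested genes, and the fourth below was Psmb2 (log2 change -0.21 ± 0.13, edgeR adjusted p = 0.331).

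Whether members passed here depended on single LPS libraries and on the fit. With all 9 libraries kept, Psmd9 and Psmf1 were lower when a urothelial term was added (edgeR adjusted p = 0.0491 and 0.0498). Without LPS library 1, 4 members were lower in LPS+Tβ4: Psmf1 (log2 change -0.84, edgeR adjusted p = 0.00788), Psmd9 (-0.61, edgeR adjusted p = 0.0146), Psma5 (-0.45, edgeR adjusted p = 0.0441) and Psma7 (-0.53, edgeR adjusted p = 0.0499). Without LPS library 3, Psme2 was lower (log2 change -1.17, edgeR adjusted p = 0.037). Of the 15015 tested genes, 2672 were called in either direction without LPS library 1 and 462 without LPS library 3, against 1025 with all libraries. The difference of Psme2 was not the same in both kinds of library, which was not tested further: it was -0.20 on the log2 scale between the 2 LPS+Tβ4 and the 1 LPS library that were urothelium-poor, and -0.83 between the 1 LPS+Tβ4 and the 2 LPS libraries that were urothelium-rich. Psmf1 was lower in both kinds, with log2 ratios of -1.01 among urothelium-poor and -0.43 among urothelium-rich libraries, and so was Psmd9 (-0.57 and -0.51). For both genes all LPS+Tβ4 libraries lay below all LPS libraries, so any split had to show this and it adds no support.

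Set against saline, LPS+Tβ4 kidneys had 21 of 43 members higher and none lower in edgeR, where 12.3% of all tested genes were higher and 11.8% lower. At an unadjusted p under 0.05, 30 members were higher and none lower, against 18.4% and 18.3% of all tested genes, and DESeq2 called none lower. Ranges were apart for 31 members above and 2 below (Psme4 and Psmg1), against 24.7% and 26.2% of all tested genes. The median log2 change was 0.50 over the members and -0.00 over all tested genes. This comparison shares its 3 saline libraries with the one of LPS and saline, and so is not independent of it. The called members were 10 of 14 core genes, 9 of 17 cap genes, Psme1 and Psme2.

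Psmb4 had the largest change of the core, with log2 change 1.29 ± 0.16, edgeR adjusted p = 0.00137. Psmb5 passed here (log2 change 0.75 ± 0.18, edgeR adjusted p = 0.0187), with LPS+Tβ4 libraries 1 and 2 at 163 and 154 CPM against a highest saline library of 89.9 CPM. Psme1 was 4.84-fold and Psme2 3.79-fold higher than in saline (log2 changes 2.27 ± 0.16, edgeR adjusted p = 0.000138 and 1.92 ± 0.32, edgeR adjusted p = 0.00374). None of the 7 chaperones, nor Psme4 (log2 change -0.33 ± 0.17, edgeR adjusted p = 0.203) or Psmf1 (0.27 ± 0.18, edgeR adjusted p = 0.319), passed. Without LPS+Tβ4 library 1, 13 members were higher, as without saline library 2, and 14 without LPS+Tβ4 library 2. The calls lost without LPS+Tβ4 library 1 included Psmb5 (adjusted p = 0.0715), Psma3 (0.0974), Psmc1 (0.145), Psmc4 (0.132), Psmd1 (0.0813), Psmd2 (0.0768), Psmd8 (0.0609) and Psmd14 (0.101), all from edgeR. These 8 were also lost without saline library 2.

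Each active beta subunit has an inducible counterpart, and the level of the constitutive subunit is read against it. Psmb8, Psmb9 and Psmb10 are not members and rose with LPS by 4.86, 3.90 and 4.01 on the log2 scale (edgeR adjusted p = 2.68e-05, 0.000127 and 4.31e-05). In FPKM, the 3 inducible genes made up 27.2%, 26.6% and 36.3% of the 6 catalytic genes' summed level in LPS+Tβ4 libraries, 50.1%, 46.3% and 35.5% in LPS libraries and 4.76%, 5.34% and 4.16% in saline libraries. The means were 30.0% ± 5.48 in LPS+Tβ4, 44.0% ± 7.56 in LPS and 4.76% ± 0.589 in saline libraries (SD, n = 3 each). The endotoxin groups were far above saline, and LPS library 3 lay among the LPS+Tβ4 libraries.

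The share was 39.2 points higher in LPS than in saline (exact permutation test, two-sided, p = 0.1) and 25.3 points higher in LPS+Tβ4 than in saline (exact p = 0.1), where 0.1 is the smallest p that 3 against 3 libraries allow. It was 14.0 points lower in LPS+Tβ4 than in LPS (-14.0, exact permutation p = 0.2). The 3 pairs stood at different levels in FPKM. Psmb10 made up 52.6%, 47.1% and 64.5% of its pair with Psmb7 in LPS+Tβ4, 79.4%, 74.8% and 64.3% in LPS and 14.5%, 14.4% and 11.7% in saline libraries. Psmb9 made up 10.3%, 9.79% and 17.1% of its pair with Psmb6 in LPS+Tβ4, 29.0%, 22.3% and 13.4% in LPS and 2.37%, 2.65% and 2.11% in saline libraries. Psmb8 against Psmb5 lay between them in the endotoxin groups, with means of 26.3% ± 3.40 in LPS+Tβ4, 35.6% ± 5.78 in LPS and 2.41% ± 0.443 in saline libraries. This order of the pairs depends on the length that FPKM takes into account. In CPM, Psmb8 exceeded Psmb5 in every endotoxin library, while Psmb10 exceeded Psmb7 only in LPS libraries 1 and 2. Psmb10 was lower in LPS+Tβ4 than in LPS (log2 change -0.91 ± 0.22, edgeR adjusted p = 0.048), a call lost in many alternatives, among them without LPS+Tβ4 library 2 (-0.80, edgeR adjusted p = 0.2). Psmb9 overlaps Tap1 on the opposite strand, which had 22.8 FPKM against 8.23 FPKM.

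**Figure D4:**
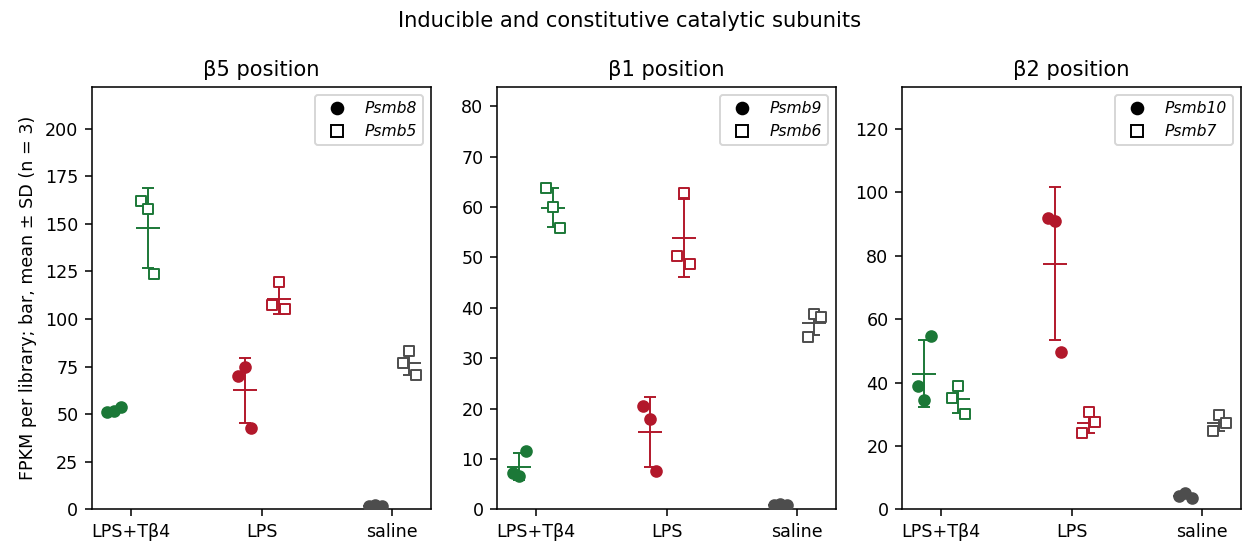
FPKM of each inducible catalytic subunit (filled circles) and its constitutive counterpart (open squares) in the LPS+Tβ4, LPS and saline libraries; bars give mean ± SD (n = 3). In FPKM, the inducible gene exceeded the constitutive one only at the β2 position (Psmb10 and Psmb7), in all 3 LPS libraries and in LPS+Tβ4 libraries 1 and 3. This order of the positions did not hold in CPM.

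Partners of the proteasome outside the name rule followed in part. Of 11 tested, 5 rose with LPS and none fell. Pomp, the chaperone that matures the beta ring, had 139.8, 124 and 110.0 CPM in the LPS+Tβ4 libraries, 104, 167 and 117 in the LPS libraries and 77.6, 72.1 and 74.0 in the saline libraries (log2 change 0.79 ± 0.18, edgeR adjusted p = 0.00869). Adrm1, a second ubiquitin receptor of the cap, had 95.2, 98.1 and 79.8 CPM in the LPS+Tβ4 libraries, 98.4, 96.7 and 116 in the LPS libraries and 56.8, 56.8 and 55.7 in the saline libraries (log2 change 0.88 ± 0.12, edgeR adjusted p = 0.000918). Both had LPS and saline ranges apart. Usp14, a deubiquitinase bound to the cap, rose by 0.42 (edgeR adjusted p = 0.0375), and Ube3c, a ubiquitin ligase on the proteasome, did not pass (-0.44 ± 0.20, edgeR adjusted p = 0.112). The stress-induced cofactors Zfand5 and Zfand2a rose with LPS (log2 changes 1.35 ± 0.27, edgeR adjusted p = 0.00443 and 1.39 ± 0.18, edgeR adjusted p = 0.000658) and were the 2 partners lower in LPS+Tβ4 than in LPS (log2 changes -1.12 ± 0.27, edgeR adjusted p = 0.0447 and -0.73 ± 0.18, edgeR adjusted p = 0.0479). Zfand5 had 102, 67.2 and 97.7 CPM in the LPS+Tβ4 libraries, 120.4, 209 and 251 in the LPS libraries and 74.2, 73.8 and 79.4 in the saline libraries, with every LPS library above every LPS+Tβ4 library. Both of these last calls were lost without single libraries, with adjusted p of 0.179 for Zfand5 and 0.194 for Zfand2a without LPS+Tβ4 library 2 (edgeR).

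Among 10 genes of the NRF1 pathway, 4 rose with LPS and 1 fell. Nfe2l1, which encodes NRF1, had 209.7, 209 and 259 CPM in the LPS+Tβ4 libraries, 387, 216 and 273 in the LPS libraries and 163, 222 and 186 in the saline libraries, with saline library 2 above LPS library 2 (log2 change 0.62 ± 0.23, edgeR adjusted p = 0.0557). Nfe2l2, which encodes NRF2, had 205, 150.3 and 198 CPM in the LPS+Tβ4 libraries, 274, 271 and 276 in the LPS libraries and 101, 120.4 and 112 in the saline libraries and rose (log2 change 1.30 ± 0.15, edgeR adjusted p = 0.000358). The small Maf partners Maff and Mafk rose by 3.90 and 1.27 (edgeR adjusted p = 0.000123 and 0.000594), and Syvn1, the ligase of NRF1 in the endoplasmic reticulum, by 0.93 (adjusted p = 0.000752). Ngly1, which removes glycans from NRF1 before it acts, fell by 0.58 on the log2 scale (edgeR adjusted p = 0.017), and Ddi2, the protease that cuts NRF1, did not pass (-0.04 ± 0.23, edgeR adjusted p = 0.892). In LPS+Tβ4 against LPS, none of the 10 passed in edgeR, with 3 lower at an unadjusted p under 0.05 (Nfe2l2, Syvn1 and Mafk). DESeq2 called Nfe2l2 and Syvn1 lower there.

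Of 6 genes for ubiquitin and its activation, only Ubb rose with LPS in edgeR. Ubb, a polyubiquitin gene, had 1279, 1224 and 983 CPM in the LPS+Tβ4 libraries, 1032, 1631 and 1729 in the LPS libraries and 727, 729.9 and 819 in the saline libraries (log2 change 0.95 ± 0.23, edgeR adjusted p = 0.011). Uba1, the main activating enzyme, did not pass (log2 change 0.12 ± 0.15, edgeR adjusted p = 0.551). Of 10 genes that deliver substrates, 4 rose with LPS: Ufd1 and Nploc4, cofactors of the unfoldase VCP, by 0.96 and 0.74, and the VCP adaptors Nsfl1c and Ubxn1 by 1.30 and 0.80. None of the genes in these lists passed in LPS+Tβ4 against LPS in edgeR. At an unadjusted p under 0.05, Ufd1, Nsfl1c and Ubxn1 were lower, with no ubiquitin gene among them. DESeq2 called Ufd1 and Ubxn1 lower.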

How the data were processed

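The authors deposited 1 table of whole-number counts per gene and FPKM values for each of the 9 libraries (strand-specific, paired-end, poly(A) RNA). Per the submitters' processing notes, cutadapt 1.9, HISAT2 2.2.1, StringTie 2.1.6, DESeq2, edgeR and the GRCm38 build were used; which tool made the deposited counts and FPKM, with which annotation and strand setting, is not given in the sources used here. Each library is taken as 1 mouse, from the series' design text.

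From the counts, edgeR 4.0.16 (R 4.3.3) with TMM scaling and the quasi-likelihood test was fitted to all 9 libraries and the 15015 genes with a mean of at least 0.5 FPKM, with Benjamini-Hochberg adjustment over those genes and a threshold of 0.05. The SE is the absolute log2 change over the square root of F. The inducible share was taken from FPKM and compared by a two-sided exact permutation test (scipy 1.17.1). Near-identical stretches in other genes (at least 95% over 200 bases) were found with BLAST 2.17.0 for 13 members. For 8 of them such a gene exceeded 5% of the member's FPKM. These include Nek6 for Psmb7 and Sirt3 for Psmd13, which are overlapping genes on the opposite strand and not copies. Psmd13 also overlaps Gm15542 on the same strand (25.5 against 11.1 FPKM), so reads may be shared. Scripts for the tests were checked on simulated data. limma 3.58.1 on log2(FPKM + 1), log2(FPKM + 0.1) and log2(TPM + 1), DESeq2 1.42.0, other filters and scalings, a replicate block, a urothelial term and leaving out each library were the alternatives. Figures were drawn with matplotlib 3.10.9 (Python 3.11.15).

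The members and gene lists were chosen with earlier results of these data known. Values in every library are given for the active beta subunits, the activators, Psmf1 and the chaperones, for the 3 members with the smallest and the 1 with the largest adjusted p in LPS against saline in each core and cap class, and for chosen partners; some genes of the lists are not reported here. The ratios between classes, the split by urothelial transcripts and the sums with copies were chosen after seeing the data. Library totals of 52953654 to 62019631 counts leave little counting error for most members, and the spread between 3 mice per group limits the precision.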

Additional observations from a re-analysis of the deposited data

How the results depend on the processing

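No member called in a comparison changed sign under an alternative; members near 0 that were not called did, and the members' median in LPS+Tβ4 against LPS, -0.01, lay between -0.10 without LPS library 1 and 0.06 with limma on log2(TPM + 1). In LPS against saline, the count of members that rose stayed within 1.5 times of 23, from 16 when at least 1.5-fold was asked to 34 with limma on log2(TPM + 1), with 18 without saline library 2 and 31 without LPS library 1, and 15 of the 26 called members stayed called under all 22 alternatives. The count that fell was 0 with limma on log2(TPM + 1), and 2 to 3 when single libraries were left out. In LPS+Tβ4 against LPS, members lower numbered 3 with DESeq2, 2 with a urothelial term and 0 to 4 without single libraries. Of the 15015 tested genes, 2442, 1128 and 68 to 2672 were called in either direction in the same order. In LPS+Tβ4 against saline, members higher numbered 33 with limma on log2(FPKM + 1), 33 on log2(FPKM + 0.1) and 36 on log2(TPM + 1), where the median of all genes was also higher by 0.14, 0.19 and 0.36 on the log2 scale, and 13 to 26 without single libraries. With counts in place of FPKM, the inducible share was 49.8 points higher in LPS and 36.7 points higher in LPS+Tβ4 than in saline. Without single libraries it was 36.2 to 43.5 and 22.1 to 27.0 points higher, and -18.2 to -10.9 points in LPS+Tβ4 against LPS. A replicate block gave 20 members higher and 2 lower in LPS against saline. It gave none in LPS+Tβ4 against LPS and 14 higher in LPS+Tβ4 against saline. Deviations of same-numbered libraries from their group means had correlations of -0.66 to 0.33, and those of differently numbered libraries -0.48 to 0.52. Tissue content can enter these correlations, so they cannot exclude a pairing by number. The cause of the shifts between alternatives was not tested. The fewest counts of a member in a library were 189.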
